A study of Mus musculus with 2 samples.

Results

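EP300 binding was examined around 10 transcription factor genes of the gastric mesenchyme, the muscle and connective tissue that surrounds the stomach epithelium. The genes were chosen by name for their known roles in this layer. They are Barx1, Pitx1, Nr2f1, Nr2f2, Foxf1, Foxf2, Nkx2-3, Nkx3-2, Meis1 and Hlx, and all 10 were found among the 21938 protein-coding genes of GENCODE M21. EP300 was immunoprecipitated with its DNA from stomach of newborn B6NCrl mice (postnatal day 0, sex not collected) and the DNA was sequenced, in 2 libraries that form 1 group. By their labels both libraries come from 1 biosample and 1 donor entry, so their spread need not include a difference between animals. There is no other tissue, stage or genotype, and no test between conditions was possible. The files are peak lists without read counts, so depth is unknown. Signal values were set by the authors' peak caller, and each replicate list has its own scale. Replicate 1, replicate 2 and the pooled reads have a list of 300000 peaks each, and the authors kept 7737 peaks in the optimal and 6974 in the conservative set by the irreproducible discovery rate (IDR). The conservative set was not a subset of the other, since 2233 of its peaks were absent from the optimal set. Signal in the optimal set had a median of 30.2 (quartiles 23.7 and 39.6). The pooled list held 7732 of the 7737 optimal peaks. The strongest optimal peak near each of the 10 genes, where there was one, carried the same signal there.

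EP300 is a histone acetyltransferase that transcription factors recruit to enhancers and promoters, and its peaks are widely used to locate candidate enhancers. In the developing gut, hedgehog ligands from the epithelium act on the mesenchyme, where Foxf1 and Foxf2, forkhead factors, are known targets of the pathway. Barx1 is a homeobox factor of stomach mesenchyme that is known to act on epithelial fate through secreted Wnt antagonists, and Nkx3-2 (Bapx1) is known for its role at the pylorus. Nr2f1 and Nr2f2 are the orphan nuclear receptors COUP-TFI and COUP-TFII, Nkx2-3 and Hlx are homeobox factors of gut mesenchyme, Meis1 is a homeobox cofactor of HOX proteins, and Pitx1 is a homeobox factor best known from the hindlimb.

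The genes fell into 3 classes by where EP300 peaks stood. Barx1, Pitx1, Nr2f2 and Meis1 had optimal peaks to which their own start was the nearest coding start. Foxf2, Nkx2-3, Nkx3-2 and Hlx had optimal peaks in reach, but each of those lay nearer to the start of another coding gene. Nr2f1 and Foxf1 had none. Here a peak is in reach when its summit lies in the gene body or within 100 kb of the gene start. The 3 classes held 4, 4 and 2 of the 10 genes. Over all 21938 protein-coding genes their shares were 18.2%, 31.7% and 50.1%, with nearest starts counted within 100 kb. To show what DNA was bound, the 201 bases around the summit of 1 peak are given for each of the 8 genes with a peak in reach, namely the strongest of the peaks in reach that were nearest to the gene's own start, or the strongest in reach where there was none. All are on the plus strand of mm10, 5′ to 3′, read from the GRCm38 assembly. Capitals mark matches, on either strand, to the consensus motifs spelled out further on.

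The peaks of the first class lay downstream of Barx1, upstream of Pitx1, inside Nr2f2 and upstream of Meis1.
Barx1, chr13:48756902-48757102: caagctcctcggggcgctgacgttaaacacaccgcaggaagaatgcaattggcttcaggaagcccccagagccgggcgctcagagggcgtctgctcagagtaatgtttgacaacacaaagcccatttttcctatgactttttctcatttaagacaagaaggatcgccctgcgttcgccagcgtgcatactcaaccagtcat
Pitx1, chr13:55881724-55881924: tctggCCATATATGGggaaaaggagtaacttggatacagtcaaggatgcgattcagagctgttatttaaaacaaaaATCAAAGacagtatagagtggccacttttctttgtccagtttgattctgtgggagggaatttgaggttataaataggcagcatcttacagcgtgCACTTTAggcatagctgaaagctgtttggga
Nr2f2, chr7:70364838-70365038: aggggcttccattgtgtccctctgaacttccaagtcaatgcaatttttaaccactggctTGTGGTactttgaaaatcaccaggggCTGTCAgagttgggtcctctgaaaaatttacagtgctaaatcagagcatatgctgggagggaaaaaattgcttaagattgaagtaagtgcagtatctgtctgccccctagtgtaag
Meis1, chr11:19103081-19103281: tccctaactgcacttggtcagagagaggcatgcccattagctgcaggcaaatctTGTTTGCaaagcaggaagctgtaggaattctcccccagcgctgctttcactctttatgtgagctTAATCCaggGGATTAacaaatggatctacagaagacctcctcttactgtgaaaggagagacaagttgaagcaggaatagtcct

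Those of the second class lay upstream of the named gene. The peak in reach of Nkx2-3 stood at the promoter of Got1, that of Nkx3-2 at the promoter of Bod1l, and those of Foxf2 and Hlx outside coding genes.
Foxf2, chr13:31567643-31567843: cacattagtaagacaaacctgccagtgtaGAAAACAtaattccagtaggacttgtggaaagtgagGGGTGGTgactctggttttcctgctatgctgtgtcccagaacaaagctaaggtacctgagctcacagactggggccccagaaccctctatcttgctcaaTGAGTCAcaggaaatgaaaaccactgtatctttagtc
Nkx2-3, chr19:43524453-43524653: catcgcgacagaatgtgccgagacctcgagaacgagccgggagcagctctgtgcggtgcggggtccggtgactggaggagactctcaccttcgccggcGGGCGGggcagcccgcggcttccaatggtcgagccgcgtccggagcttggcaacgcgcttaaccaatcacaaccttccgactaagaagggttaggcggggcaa
Nkx3-2, chr5:41844239-41844439: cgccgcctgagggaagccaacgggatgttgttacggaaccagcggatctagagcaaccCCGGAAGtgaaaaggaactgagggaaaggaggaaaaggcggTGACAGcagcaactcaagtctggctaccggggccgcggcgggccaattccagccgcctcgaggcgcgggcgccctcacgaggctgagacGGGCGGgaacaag
Hlx, chr1:184782035-184782235: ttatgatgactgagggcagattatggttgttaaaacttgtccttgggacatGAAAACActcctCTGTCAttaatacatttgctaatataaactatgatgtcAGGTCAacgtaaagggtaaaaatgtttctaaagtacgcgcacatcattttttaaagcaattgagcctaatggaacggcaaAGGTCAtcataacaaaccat

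Counted over the list, 8 of the 10 genes had an optimal summit in reach, where 49.9% of all protein-coding genes did. The summits numbered 25, in 19 separate regions, since 6 regions were made of 2 overlapping peaks. Overlap was similarly common in the whole optimal set, where 7733 peaks on the named chromosomes formed 6079 regions. Of the 25, 21 lay more than 10 kb from the start of the gene, 16 lay outside coding genes, 6 in introns and 3 on exons. All 25 had the full peak width of 560 bp. Their signal ran from 8.14 to 59.6 with a median of 28.6, and 11 of them were above the median of the whole optimal set. They were thus of middling strength within the optimal set, with ranks from 626 to 7676 of 7737. In a whole tissue, fewer cells of a type and less binding per cell cannot be told apart, and peak lists hold no RNA against which the tissue label could be checked.

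**Figure D1:**
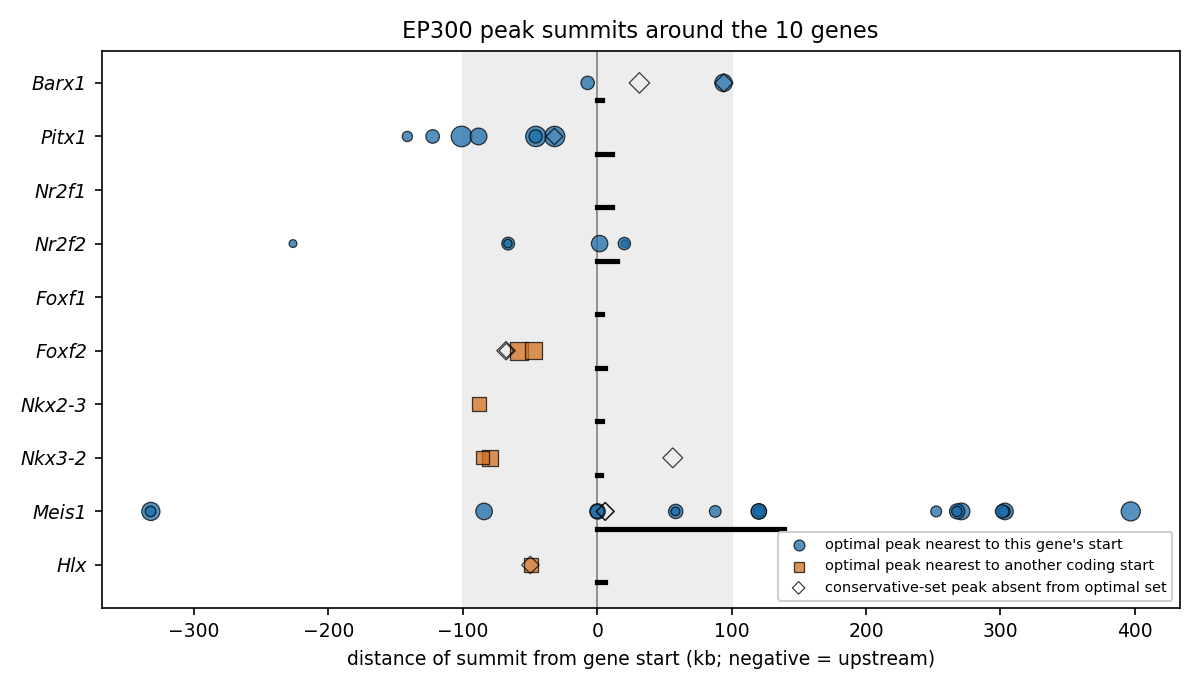
Distance of each EP300 summit from the start of the gene in kb (horizontal axis, negative upstream) for the 10 genes (rows), with symbol area in proportion to the signal value, grey for 100 kb either side of the start, black bars for gene bodies, and optimal peaks beyond 100 kb drawn only where the gene's start is the nearest coding start. Meis1 and Pitx1 have the most summits, Nr2f1 and Foxf1 have none, and the squares of Foxf2, Nkx2-3, Nkx3-2 and Hlx are all nearest to another gene.

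By nearest start at any distance, 4 of the 10 genes owned an optimal summit, against 19.3% of all protein-coding genes. A summit inside the gene body was present in Nr2f2 and Meis1, that is 2 of 10, against 12.1%. Only Meis1 had an optimal summit within 1 kb of a coding transcript start, 1 of 10 against 11.2%. With the 10 genes chosen as a list and no second group, these shares are descriptions and were not tested. The count in reach depended on the distance taken. It was 6 of 10 within 50 kb (all coding genes 36.7%), 3 of 10 within 10 kb (20.1%) and 8 of 10 within 200 kb (64.7%).

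Meis1 stood out within the list by the number of its peaks. Its gene (chromosome 11, 18879817 to 19018985, minus strand) is 139169 bp long, so its window is wider than that of the other 9 genes. It held 8 optimal summits in 5 regions, and 2.46% of all protein-coding genes held as many or more. An overlapping pair of peaks covered the promoter, on exon sequence outside the coding part. The stronger of them (19018476 to 19019035) had a signal of 34.6 from both libraries together. The replicate peaks, with 19.9 in replicate 1 and 15.1 in replicate 2, matched both peaks of the pair. The strongest peak in reach lay 84196 bp upstream (19102901 to 19103460, signal 39.4, rank 1980), with 26.8 in replicate 1 but 11.5 in replicate 2. Introns held the remaining 5 summits. A pair lay 120274 and 120534 bp into the gene (signal 33.8 and 16.4), of which the stronger had 12.8 in replicate 1 and 17.8 in replicate 2. Another pair lay 58408 and 58206 bp in (29.4 and 10.99), with 9.92 in replicate 1 and 17.7 in replicate 2. A lone peak 87825 bp in had a pooled signal of 19.6, with 14.1 in replicate 1 and 5.21 in replicate 2. The replicates thus ranked the Meis1 peaks in different orders, with the upstream peak first in replicate 1 and the intronic peaks 120274 and 58408 bp in first in replicate 2, where the intronic peak 87825 bp in came last.

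Meis1 peaks also went on far beyond 100 kb. Its start was the nearest coding start of 18 optimal summits, of which 10 lay outside the gene and more than 100 kb from its start. When the starts of non-coding genes were counted too, Meis1 was the nearest start of 2 summits, since most of the others lay nearer to a non-coding gene or pseudogene such as Gm12023 and Gm28401. The strongest of all was 397004 bp downstream of the start, past the end of the gene (18621701 to 18622260, signal 52.6, rank 879), with 18.3 in replicate 1 and 30.4 in replicate 2. A peak 332144 bp upstream had a signal of 47.5, with 21.6 and 27.6 in the replicates. Peaks 303380 and 271048 bp downstream had 39.8 and 40.3. All 4 of these pooled values were higher than that of the strongest Meis1 peak in reach. Being nearest does not show that a peak acts on the gene.

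Pitx1 had the strongest peaks of the list. All 4 of its optimal summits in reach lay upstream of the gene (chromosome 13, 55825051 to 55836192, minus strand), in the span of the antisense transcript Gm47071. A peak 45632 bp upstream (55881544 to 55882103) had a signal of 59.6 and rank 626, with 26.3 in replicate 1 and 29.5 in replicate 2. A peak 31677 bp upstream (55867589 to 55868148) had 59.3 and rank 636, with 23.9 in replicate 1 and 31.6 in replicate 2. Both stood well above the upper quartile of the optimal set. The peak 88311 bp upstream had a pooled signal of 40.2, with 14.7 in replicate 1 and 22.4 in replicate 2, and the last, with 24.9, overlapped the strongest by 356 bp. All 4 were also in the conservative set. Just past the limit of 100 kb, at 100947 bp upstream, lay a stronger peak still (55936859 to 55937418, signal 61.1, rank 595), with 32.04 in replicate 1 and 25.7 in replicate 2. Weaker peaks followed 122456 bp (signal 26.4) and 141279 bp upstream (15.0), so that 7 optimal summits had Pitx1 as the nearest coding start.

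Nr2f2 combined an intragenic peak with weaker flanking ones. The strongest lay in an intron 1797 bp from the start (chromosome 7, 70364658 to 70365217, signal 38.7, rank 2075), and 28 bp from the start of the transcript B130024G19Rik. It had 15.4 in replicate 1 and 24.6 in replicate 2, and it was the only one of the 5 Nr2f2 summits that the conservative set kept. The other 4 formed 2 overlapping pairs. Those past the gene end, 20194 and 20574 bp from the start, had signals of 21.9 and 8.14, and those 66273 and 66474 bp upstream had 23.5 and 10.3. Within each pair both peaks had the same IDR score, 766 for the first and 546 for the second, and all 4 peaks were below the lower quartile of the optimal set. Merging overlapping peaks leaves Nr2f2 with 3 regions.

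Barx1 (chromosome 13, 48662998 to 48666507, plus strand) had 2 optimal summits. The stronger lay 94004 bp downstream of the start (48756722 to 48757281, signal 43.4, rank 1492), with close values of 26.3 in replicate 1 and 24.5 in replicate 2. The nearer lay 7123 bp upstream (48655595 to 48656154, signal 25.7), with 10.2 and 8.73, and it was absent from the conservative set. A further peak, 31408 bp downstream (48694126 to 48694685), had a signal of 30.3, with 15.3 in replicate 1 and 15.0 in replicate 2. It was in the conservative but not in the optimal set, although it was stronger than the nearer optimal peak in all 3 lists.

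The peaks in reach of Foxf2 crossed into the neighbourhood of Foxq1, a forkhead gene known from the stomach epithelium. The start of Foxq1 lies 69682 bp upstream of that of Foxf2, on the same strand, and A530084C06Rik starts close by. Peaks 58073 bp (chromosome 13, 31567463 to 31568022, signal 46.3, rank 1231) and 47229 bp upstream of Foxf2 (31578307 to 31578866, signal 41.5) were both nearest to A530084C06Rik, at 8410 and 19254 bp. The first had 28.3 in replicate 1 and 20.1 in replicate 2, and the second 26.1 and 13.5. Both values were higher in replicate 1. The conservative set added an overlapping pair on exon sequence shared by A530084C06Rik and Foxq1, with signals of 24.4 and 15.7.

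The peaks in reach of Nkx3-2 and Nkx2-3 included promoters of other genes. For Nkx3-2 the stronger of 2 optimal summits lay 24 bp from the start of Bod1l (chromosome 5, 41844059 to 41844618, signal 34.0, with 23.9 in replicate 1 and 20.7 in replicate 2), 79838 bp upstream of Nkx3-2. The other lay 5623 bp from the start of Bod1l (signal 23.8, with 8.50 and 13.3). The conservative set held a further peak 117 bp from the start of Rab28 (signal 28.4). For Nkx2-3 the only optimal summit lay 52 bp from the start of Got1, which encodes a cytosolic aminotransferase (chromosome 19, 43524273 to 43524832, signal 28.6). Its signal was 7.70 in replicate 1 and 20.3 in replicate 2, and the conservative set did not keep it. The strongest pooled peak with Nkx2-3 as the nearest coding start among the 3 strongest in reach lay 29704 bp downstream, with a signal of 22.0, and neither IDR set kept it.

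Hlx had 1 optimal summit, 49516 bp upstream of the gene and 26718 bp from the start of Marc1 (chromosome 1, 184781855 to 184782414, signal 28.1). The replicates gave close values of 17.5 and 18.9, and the peak was in both IDR sets. The next strongest pooled peak, 16393 bp upstream, was nearest to Hlx itself and had a signal of 25.8, but neither set kept it.

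Nr2f1 and Foxf1 had no summit in reach in either IDR set. The optimal peak nearest to the start of Nr2f1 (chromosome 13, 78188973 to 78199757) lay 2682328 bp away, 1325 bp from the start of Arrdc3. Only 1.95% of protein-coding genes had their nearest optimal summit farther off, and the median over all of them was 103029 bp. For Foxf1 (chromosome 8, 121084386 to 121088144) the nearest lay 223395 bp upstream, with a signal of 16.9, and 32.4% of genes had theirs farther off. The replicate peaks with a summit inside it were stronger in replicate 2 (39.9, rank 350) than in replicate 1 (13.95, rank 8344). The pooled 16.9 alone thus does not show a weak site. Both genes had peaks in the pooled list that neither IDR set kept, 24 summits in reach for Nr2f1 and 13 for Foxf1. The median over all protein-coding genes was 24. In replicate 1 these counts were 25 and 30 (median 26) and in replicate 2 they were 23 and 18 (median 25). The strongest pooled peak of Nr2f1 lay 722 bp upstream of its start (78200199 to 78200758, signal 18.6, rank 15175 of 300000). That of Foxf1 lay 10799 bp upstream, inside the divergent non-coding gene Fendrr, with a signal of 20.02 and rank 12445. Both values were below the lower quartile of the optimal set. Foxf1 had fewer pooled peaks than the median gene, but not in replicate 1.

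**Figure D2:**
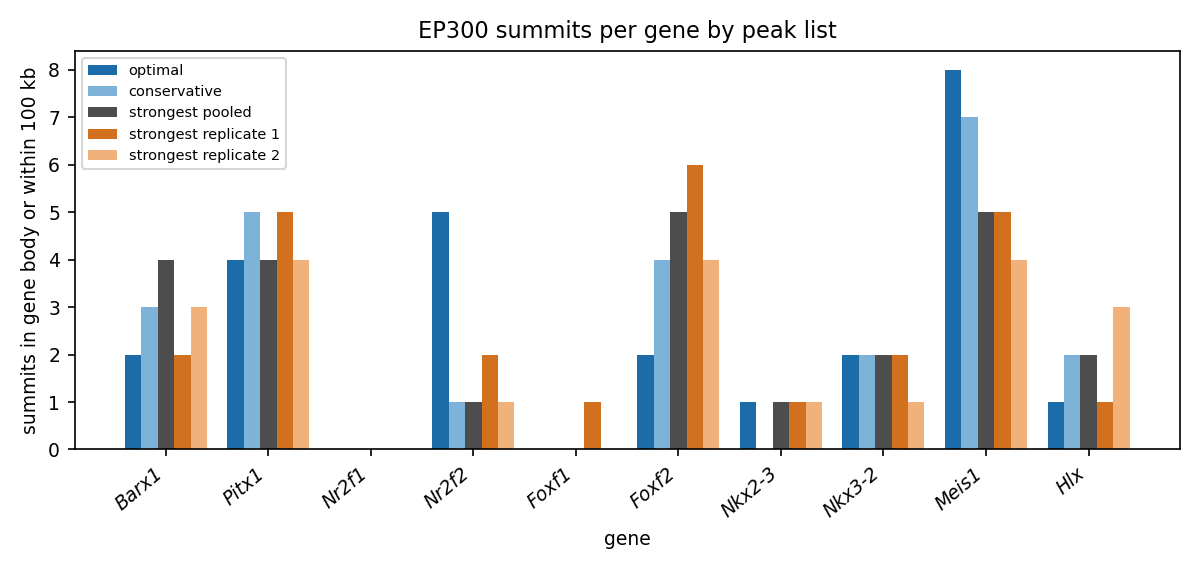
Number of EP300 summits in the gene body or within 100 kb of the start (vertical axis) for the 10 genes, in the optimal set, the conservative set and the 7737 strongest peaks of the pooled, replicate 1 and replicate 2 lists. Meis1 runs from 8 in the optimal set to 4 in replicate 2, Nr2f2 from 5 in the optimal set to 1, and Foxf2 from 2 in the optimal set to 6 in replicate 1.

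The count of genes was similar between lists, but the counts per gene were not. The conservative set put a summit in reach of 7 of the 10 genes (48.2% of all protein-coding genes), with Nkx2-3 dropping out. Among the 7737 strongest peaks of replicate 1 it was 9 of 10 (54.6%), with Foxf1 added, and in those of replicate 2 it was 8 of 10 (53.7%). Nr2f1 had none in any of these lists. Of the 25 optimal summits, 15 were also in the conservative set. That share was close to the one over all optimal peaks, of which 2996 of 7737 were absent from the conservative set. The conservative set held 24 summits in reach of the list. Of these, 9 were absent from the optimal set, beside 2233 of all 6974 conservative peaks. Foxf2 had 2 summits in the optimal set, 4 in the conservative set and in replicate 2, and 6 in replicate 1. Nr2f2 had 5 in the optimal set and 1 in the conservative set.

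At the promoters themselves EP300 signal was highest at Meis1. A peak of the long pooled list lay within 1 kb of a coding transcript start at 8 of the 10 genes, against 46.9% of all protein-coding genes. Over the genes with such a peak, the strongest had a median signal of 15.7 (quartiles 10.5 and 25.4). Meis1 had 34.6, and 14.3% of the genes with a promoter peak reached that value. Nr2f1 had 18.6, Foxf1 16.6, Nr2f2 16.1, Hlx 15.2, Pitx1 14.2, Nkx2-3 11.6 and Foxf2 11.2. No peak of the pooled or replicate lists lay within 1 kb of a coding start of Barx1 or Nkx3-2. The replicates differed at Foxf1, where the strongest promoter peak had 16.7 and rank 4893 in replicate 1, 520 bp upstream, and 6.86 and rank 84690 in replicate 2, 831 bp upstream. At Pitx1 the order was the other way, with 9.29 and rank 31635 in replicate 1 and 15.9 and rank 4760 in replicate 2, and the peaks lay at different coding starts of the gene.

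**Figure D3:**
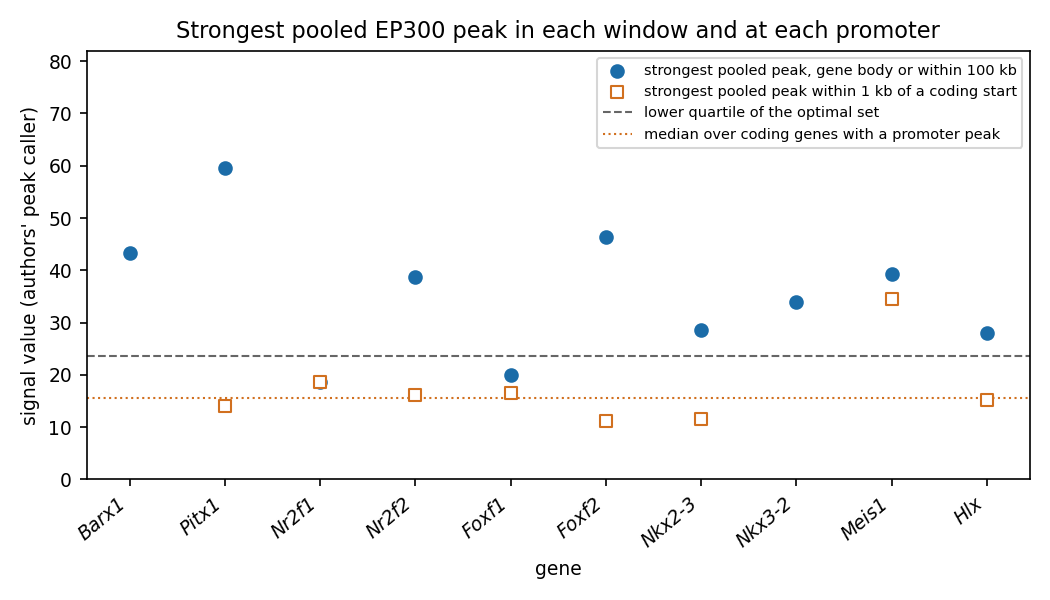
Signal value of the strongest pooled peak in reach of each gene (filled circles) and of the strongest pooled peak within 1 kb of a coding start (open squares; Barx1 and Nkx3-2 have none), where the dashed line is the lower quartile of the optimal set (23.7) and the dotted line the median promoter signal over coding genes that have such a peak (15.7). Nr2f1 and Foxf1 lie under the dashed line at 18.6 and 20.02, and at Nr2f1 both symbols are the same peak.

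The replicates gave each peak a value of its own, and these scattered widely. Of the 25 summits, 23 had a summit of both replicate lists inside the peak, but overlapping peaks shared them, so that they rest on 19 distinct pairs of replicate peaks. Replicate 1 was higher at 10 of the 23 and replicate 2 at 13. The ratio of replicate 1 to replicate 2 had a median of 0.892 over the 23, against 1.01 over the 6865 optimal peaks with both values (quartiles 0.723 and 1.44). The lowest ratio was that of the peak at Got1 in reach of Nkx2-3 (0.380), and 3.39% of all optimal peaks had one as low. The highest was that of the Meis1 peak 87825 bp into the gene (2.71), and 96.2% of all optimal peaks had one at or below it. The upstream Meis1 peak followed with 2.33. With 1 library a replicate, none of these differences could be tested.

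**Figure D4:**
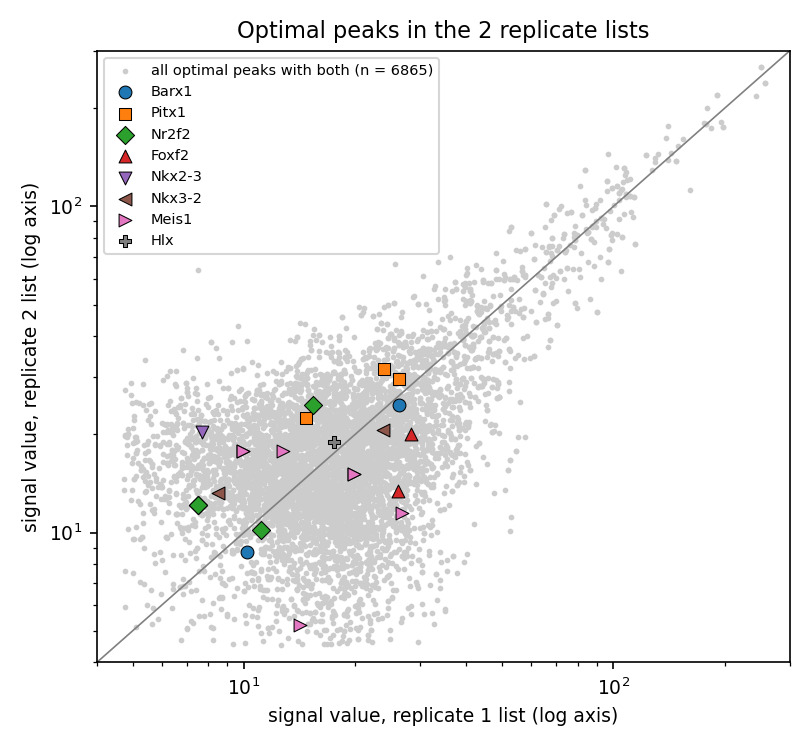
Signal value in the replicate 1 list (horizontal, log axis) against the replicate 2 list (vertical, log axis) for the optimal peaks in reach of the 10 genes (coloured symbols) and for all 6865 optimal peaks with both values (grey), where the line marks equal values and overlapping peaks can share a point. The Pitx1 peaks lie above the line, the Foxf2 peaks below it, and Meis1 peaks lie on both sides.

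The sequence under the peaks was somewhat poorer in G and C than usual for the optimal set. Within 100 bp of the 25 summits the GC content had a median of 45.8% (29.4 to 65.2%), against 50.7% over all 7733 optimal summits on the named chromosomes. The highest values were at the promoter peaks of Got1 (65.2%, 23 CpG sites in 201 bases) and Bod1l (64.2%, 19 CpG sites). The peaks of Nr2f2 (intron) and Foxf2 (58073 bp upstream) printed above had no CpG site in this window. In 1 of the 25 windows, the peak 5623 bp from Bod1l, more than 50% of the bases were masked as repeat in the assembly.

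Short consensus motifs were searched on both strands. For the families of the 10 genes themselves they were TGTTTNC for forkhead factors (FOX), TNAAGTG for NK2 homeobox factors, TGACAG for MEIS proteins, TAATCC for PITX proteins, AGGTCA for nuclear receptors such as COUP, TAATTA for homeobox factors in general and TAATTG as a BARX-type motif. For smooth muscle and signalling they were ACCACCC for GLI, the effectors of hedgehog, CTTTGAT for TCF and LEF, the effectors of Wnt, CATTCC for TEAD, the effectors of Hippo signalling, TGANTCA for AP-1, and the CArG box of serum response factor. For other factors of the tissue they were GGGCGG for KLF and SP proteins of promoters, TTTATNG for HOX proteins, TGTGGT for RUNX proteins, AGATAA for GATA proteins, CCGGAAG for ETS proteins and AACCGGTT for GRHL proteins of epithelia. The homeobox and BARX-type motifs differ in a single letter, and both share their first letters with the PITX motif. A FOX match lay within 100 bp of 6 of the 25 summits (24.0%), against 18.8% of all 7733 optimal summits, and GATA and MEIS matches at 4 each (16%, against 8.11% and 13.6%). These counts depended on the stretch searched, with FOX at 2 of 25 within 50 bp of the summit and at 11 over the whole peak, GATA at 3 and 8, and MEIS at 3 and 8. TCF and LEF matches were at 3 (12.0% against 2.87%), PITX at 3 (12.0% against 8.65%) and KLF and SP at 3 (12.0% against 20.8%). The TCF and LEF matches lay at the Pitx1 peaks 45632 and 88311 bp upstream and in the peak 5623 bp from Bod1l. In that last window 68.2% of the bases were masked as repeat. GATA matches lay at the Nr2f2 peak 20194 bp from its start and at the Meis1 peaks 120274, 87825 and 58408 bp into the gene. Within 100 bp, TEAD (1 of 25 against 14.2%) and AP-1 (2 against 12.7%) were seldom seen. BARX-type and GRHL matches were not seen there at all (5.42% and 0.466% of all summits). Over the whole peak TEAD was at 6 of 25, AP-1 at 7, BARX-type at 2 and GRHL at 0. No share over all summits was taken for that stretch. With 25 summits, a single peak moves a share by 4%, so these differences are descriptions of the few peaks at hand.

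Single peaks differed in what they carried. The strongest Pitx1 peak within 100 kb, printed above, held a CArG box (CCATATATGG), a motif at 1.77% of all summits, with a TCF and LEF match (ATCAAAG) and an NK2 match (CACTTTA). That CArG box began 95 bp from the summit, near the edge of the stretch searched, and within 50 bp none of the 25 summits had one. The Pitx1 peak 88311 bp upstream also had a TCF and LEF match, beside FOX, COUP and TEAD matches. The Foxf2 peak had a FOX match (GAAAACA), an AP-1 match (TGAGTCA) and a GLI match (GGGTGGT), the last at 2.91% of all summits. The upstream Meis1 peak had a FOX match (TGTTTGC) and PITX matches in both orientations (TAATCC and GGATTA). The Hlx peak had 2 COUP matches (AGGTCA), a MEIS match (CTGTCA) and a FOX match, and the intronic Nr2f2 peak a MEIS and a RUNX match. The Barx1 peak had no match to any motif searched. A match is a stretch of letters, and no factor other than EP300 was measured.

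**Figure D5:**
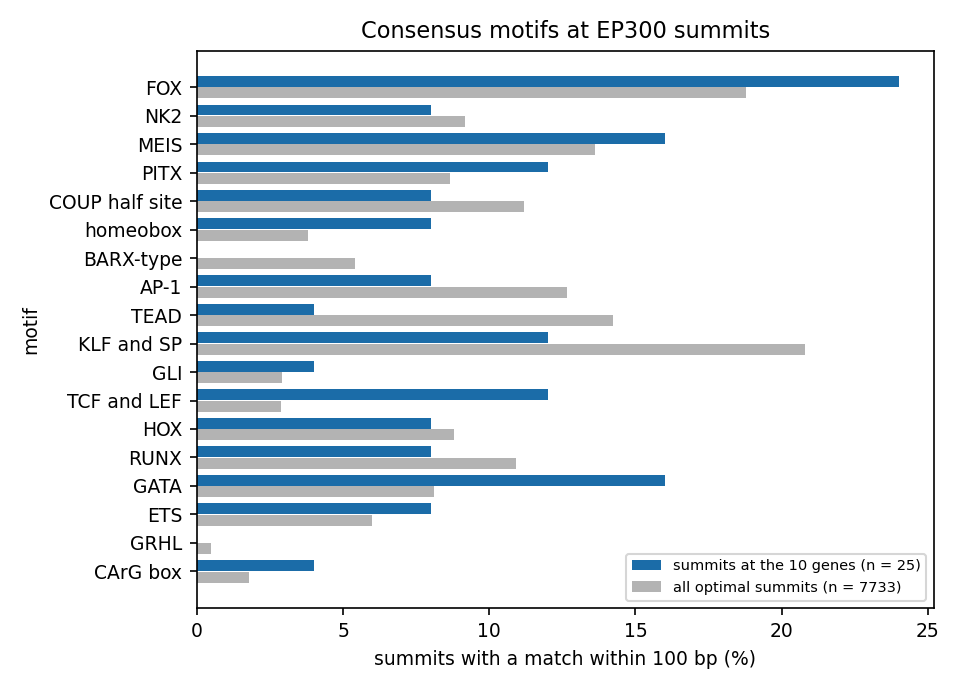
Share of summits with a match within 100 bp, in percent (horizontal axis), for the 18 motifs (rows), at the 25 summits in reach of the 10 genes (blue) and at all 7733 optimal summits (grey). TCF and LEF (12.0% against 2.87%) and GATA (16% against 8.11%) are higher at the 25 summits, TEAD (4.0% against 14.2%) lower, and each blue share rests on at most 6 summits. The GATA matches lie at Meis1 and Nr2f2 only, and those of TCF and LEF at Pitx1 and in reach of Nkx3-2 only.

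Other genes of the tissue layer give the surroundings of the list. Of 26 other transcription factors of gastric mesenchyme, 12 had an optimal summit in reach (46.2%). Of the 26, 9 were the nearest coding start of one within 100 kb, beside 4001 of all 21938 protein-coding genes. Nfia, a nuclear factor I gene, had 8 summits (strongest signal 38.3), Nfix 5 (36.7) and Nfib 4 (49.5). Within 100 kb, Nfia was the nearest coding start of 4 summits, Nfix of 1 and Nfib of 2. Of 20 genes of the signals that pass to and from the mesenchyme, 7 had a summit in reach (35.0%). Fgfr2, a receptor of fibroblast growth factors, had 16 (98.3) but was the nearest coding start of only 2 within 100 kb. Ptch1, the hedgehog receptor, had 9 (44.3) and was the nearest coding start of 5. Sfrp1, a secreted Wnt antagonist, had 3 (30.2), all nearest to its start. Of 17 genes of the same families as the 10, 6 had a summit in reach (35.3%), led by Barx2 with 4 (39.6), Nr2f6 with 4 (31.6), Tlx2 with 3 (33.9) and Tlx1 with 2 (148.2). Within 100 kb, Barx2 was the nearest coding start of 4 summits and Nr2f6 of 1. The Tlx1 and Tlx2 summits were all nearest to other coding starts. These shares with a summit in reach lay below the 49.9% of all protein-coding genes. By nearest start within 100 kb, 9 of 26 and 5 of 20 were larger shares than 4001 of 21938. In the same-family list it was 3 of 17, a slightly smaller share. Neighbouring genes share summits, so the counts are not independent.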

How the data were processed

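EP300 chromatin immunoprecipitation and sequencing in 2 libraries of newborn stomach was used as 5 deposited peak lists on mm10. Per the deposited readme texts, the replicate and pooled lists came from alignment and control files, and the IDR sets from these lists. Aligner, peak caller and versions are not given in these sources. As for units, the deposited signal is the authors' peak caller's value. It is comparable within a list, and between the pooled list and the IDR sets where they carry the same values. The deposited score is a scaled IDR score in the IDR sets, and the deposited summit offset, another unit, counts bp from the peak start. That the pooled and replicate lists each stop at 300000 peaks carries no information on depth. From these values, summits (peak start plus offset, printed 1-based) were assigned to GENCODE M21 genes with Python 3.11.15 and pandas 2.3.3, in the gene body or within 100 kb of the gene start. Promoter and nearest-start assignments used starts of coding transcripts. The replicate value of a peak is the strongest peak of that list with its summit inside it. Functions were tested on simulated data. No statistical test was made, and no count depends on one. The 10 genes, the other gene lists and the motifs were chosen with earlier results of these data known. Named are the 10 genes, genes nearest to their summits and up to 4 genes of each other list with the most summits, of which 2 are not reported here. Rab28, Foxq1, Fendrr, Gm47071 and the peaks outside the optimal set were added after their values were seen. Alternatives were other lists, windows, start models and merged peaks.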

Additional observations from a re-analysis of the deposited data

How the results depend on the processing

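No paired analysis was possible because there is 1 group. The number of genes with a summit in reach (8) lay within 1.5 times its value in every alternative but the 10 kb window, where it was 3. The number of summits (25) was 11 in the stronger 50% of the optimal set, 16 with a 50 kb window and 9 with a 10 kb window, where fewer peaks or less sequence are counted; with overlapping peaks merged it was 19. Genes with a promoter summit (1, Meis1) became 2 within 2 kb of a start, where Nr2f2 joins, and 2 in the strongest peaks of replicate 1 alone (Foxf1 added) and 2 in those of replicate 2 alone (Pitx1 added). Genes that were the nearest coding start of a summit (4) were 5 in replicate 2 alone and 8 in replicate 1 alone; the cause was not tested. They were 4 in the conservative set and in the stronger 50% of the optimal set and 6 in the strongest pooled peaks. With non-coding starts included they were 3, and the summits so assigned went from 18 to 2 for Meis1, from 7 to 4 for Pitx1, from 6 to 0 for Nr2f2 and from 2 to 1 for Barx1. The median replicate ratio was 0.892 under both ways of matching peaks. Of 110 counts per gene under the alternatives, 70 stayed within 1.5 times, 11 were higher and 29 lower. Those that stayed include counts of 0 that remained 0, for Nr2f1 in every alternative and for Foxf1 in all but replicate 1 alone. Of 36 motif counts, 14 stayed, 15 were higher and 7 lower. The direction was fixed in advance, since a shorter stretch cannot raise a motif count and a longer one cannot lower it. Depth is unknown, so a missing peak may lie below what these libraries detect.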
